A study of Mus musculus with 15 samples.

Results

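Contractile vascular smooth muscle cells (VSMCs) of the mouse aorta were taken from single-cell RNA counts of 15 libraries. A cell was counted as a contractile VSMC when at least 4 of 6 contractile markers (Myh11, Acta2, Tagln, Cnn1, Itga8 and Lmod1) had a unique molecular identifier (UMI, 1 captured RNA molecule), at most 1 of 4 pericyte genes (Rgs5, Kcnj8, Higd1b and Cox4i2) had one, the leukocyte gene Ptprc and the endothelial gene Cdh5 had none, and the fibroblast genes Lum and Pdgfra together had at most 1. This rule took 1811 of the 128019 cells that had between 200 and 7000 detected genes and no more than 25% mitochondrial UMIs, out of 130551 barcodes. Mice of every group were wildtype C57BL/6N. Fisetin, a plant flavonol given as a senolytic, or its vehicle was dosed by gavage for 1 week, paused for 2 weeks and dosed for 1 week again. Vehicle-treated mice gave 4 young (Y VEH) and 3 old (O VEH) libraries, and fisetin-treated mice 4 young (Y FIS) and 4 old (O FIS) libraries, with 2 female (F1, F2) and 2 male (M1, M2) libraries in each group except O VEH, which had 1 male library (M1). Per the labels the old mice were 27 months old and the young ones 3 months old, an age that the study's methods give differently for the young. Each library pooled the aortas of 3 mice according to the labels, while the study's main methods give 2 to 3. The library is thus the replicate, and mouse to mouse spread within a library was not seen. The aortas were digested with enzymes after removal of the perivascular fat and sorted for viable cells without a gate for a cell type.

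VSMCs form the media of the aorta between sheets of elastin and set vessel tone. Their contraction starts when calcium entering through voltage-gated channels and released from the sarcoplasmic reticulum drives phosphorylation of the myosin light chain, and nitric oxide relaxes them through cyclic GMP and protein kinase G. Myocardin and serum response factor switch on the contractile genes through CArG boxes in their promoters. VSMCs also make elastin, collagens and matrix Gla protein, and they can lose contractile proteins and take on matrix-producing or mineralising states in injured, atherosclerotic or ageing vessels.

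CArG boxes were looked for because myocardin, the coactivator that binds serum response factor, was the RNA with the highest level in VSMCs relative to the other cells among those outside the rule. A CArG box without a mismatch, on either strand, lay within 250 bases upstream of the start of 4 of the 40 listed contractile genes that the rule did not use (10%) and of 1 of the 6 markers in the rule, compared with 304 of 21770 promoters of all protein-coding genes (1.40%). The list of cell-cycle genes had the same share (2 of 20, 10%), and the other gene lists used below had 0% to 5.13%. With 1 G or C allowed between the CC and GG ends, which were kept, the shares were 11 of 40 (27.5%) and 8.70%. The letters are a description of the sequence and not evidence of binding. The stretches printed here, from GRCm39 with GENCODE M39 starts and read on the strand of the gene, hold 3 boxes of the listed genes and the markers that began within 100 bases of the start, 33 bases before it in Cnn2, 62 in Filip1l and 64 in Tagln. The box is in capitals, and each stretch runs from 30 bases before it to 30 bases after it or to the start. They are at chr9:45847429-45847498 for Tagln (minus strand), chr10:79824348-79824410 for Cnn2 (plus strand) and chr16:57369513-57369582 for Filip1l (plus strand).
Tagln: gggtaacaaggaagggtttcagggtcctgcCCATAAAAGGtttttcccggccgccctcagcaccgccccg
Cnn2: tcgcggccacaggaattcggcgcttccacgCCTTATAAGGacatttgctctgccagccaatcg
Filip1l: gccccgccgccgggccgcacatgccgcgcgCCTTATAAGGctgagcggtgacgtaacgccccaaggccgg
These 3 boxes keep the CC and GG ends around a core of A and T. Tagln encodes the actin-binding protein SM22, Cnn2 the actin-binding protein calponin-2, and Filip1l is a filamin A-interacting protein-like gene.

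Most VSMCs met the rule with room to spare. All 6 markers had a UMI in 1156 cells (63.8%, median of 8010.5 UMIs per cell), 5 in 396 (21.9%, 2817 UMIs) and 4 in 259 (14.3%, 1923 UMIs). Just outside the rule, 202 cells had 3 markers and otherwise met it (1667.5 UMIs). On the pericyte side, 799 VSMCs had 1 pericyte gene and 1012 had none, while 319, 91 and 67 cells with 4 or more contractile markers had 2, 3 and 4 pericyte genes and stayed outside. The count of markers moved with the depth of a cell. None of the 1811 VSMC barcodes was also that of a VSMC in a second library. Of the 128328 distinct barcodes of the series, 2203 were in more than 1 library. Whether VSMC barcodes recurred on other cells was not counted, so these counts are not comparable.

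Libraries held 49964001 to 74587567 UMIs, of which 240545 to 3753014 came from VSMCs, and the median VSMC had between 2377 UMIs (Y FIS M1) and 9192 UMIs (Y FIS F2). RNAs of other cell types were also present in the VSMCs. The 8 pericyte markers, 4 of which the rule limited, summed to 266 to 1390.3 CPM and the 8 fibroblast markers, all detected, summed to 39.2 to 327 CPM (UMIs scaled to an equal total of VSMC UMIs in each library). The 7 macrophage markers summed to 7.14 to 721 CPM, highest in Y VEH F1, the 7 B cell markers to 52.8 to 463 CPM, highest in O FIS F1, the 6 T cell markers to 2.55 to 16.6 CPM and the 5 neutrophil markers to 0 to 137.7 CPM. Of the 6 adipocyte markers Adipoq and Lep were at 0. The 5 erythroid markers summed to 23833 CPM in O VEH F1 and 3910 CPM in Y FIS F2, where 1 cell each held 9225 of 9339 and 14122 of 14642 haemoglobin UMIs. O VEH F2 held the fewest VSMCs (38) and their highest median share of Malat1, a nuclear noncoding RNA (5.34% of UMIs against 2.12% to 3.98% in the other libraries).

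The markers that chose the cells are given as a description, since their counts were used by the rule. Acta2, smooth muscle alpha-actin, was at 20499, 17964, 17974 and 17964 CPM in Y VEH, 18037, 16386, 14326 and 14427 CPM in Y FIS, 11788, 8485 and 11476 CPM in O VEH and 15023, 14864, 13179.9 and 12730.2 CPM in O FIS, here and below in the order F1, F2, M1 and M2. All 3 O VEH libraries lay below all others, for a marker that the rule read. Among the RNAs outside the rule that were tested, 12.1% did not overlap between O VEH and Y VEH alone. In the vehicle groups Cnn1, calponin-1, was at 1183 ± 137 CPM in the 4 young and 710.4 ± 27.8 CPM in the 3 old libraries (mean ± SD), and with fisetin at 1009 ± 113 CPM in the 4 young and 863 ± 155 CPM in the 4 old libraries. In the order Y VEH, Y FIS, O VEH and O FIS, smooth muscle myosin heavy chain, Myh11, was at 5246 ± 567, 5031 ± 623, 4109 ± 779 and 4977 ± 587 CPM. Tagln was at 10914 ± 917, 9865 ± 759.9, 8136 ± 2056 and 10529 ± 947 CPM. The integrin Itga8 was at 2256 ± 89, 2297 ± 262, 1761 ± 396 and 1527 ± 421 CPM. Leiomodin-1, Lmod1, was at 1206 ± 103, 1079 ± 16.7, 963 ± 138 and 1017 ± 64.5 CPM. Myh11, Tagln and Lmod1 had their lowest mean in O VEH, and Itga8 in O FIS. Leukocytes had an Acta2 UMI in a median of 12.6% of cells over libraries (8.30% to 58.6%) and a Cnn1 UMI in a median of 1.41%, while 97.9% to 100% and 58.3% to 85.6% of VSMCs had one. An Itga8 UMI was in a median of 5.03% of leukocytes (2.07% to 28.6%), and in O FIS F2 and O VEH F2 in more of them (28.6% and 11.5%) than an Acta2 UMI (8.30% and 8.73%), while an Acta2 UMI was in 100% and an Itga8 UMI in 90.9% and 81.6% of the VSMCs of these libraries. The source of these UMIs in leukocytes was not tested.

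Beyond the rule, RNAs were ranked by the ratio of their VSMC level to the level in the other kept cells, and the first 15 are given. Myocd, myocardin, was first and was at 439.9 ± 118 CPM (mean ± SD over 15 libraries), against 0.877 CPM in pericytes, 0.267 CPM in fibroblasts, 2.16 CPM in leukocytes and 0.520 CPM in endothelial cells. Myom1, the M-band protein myomesin-1, was at 813 ± 141 CPM in VSMCs. Mylk4, a myosin light chain kinase family member, was at 282 ± 105 CPM, Ldb3, a Z-disc protein, at 212 ± 35.4 CPM, and Tcap, the titin cap protein, at 216 ± 194 CPM. These RNAs are better known from striated muscle, whose 8 markers summed to 5.54 to 119 CPM in the VSMCs. Ryr2, a calcium release channel of the sarcoplasmic reticulum, was at 364 ± 73.3 CPM and Kcnmb1, the smooth muscle beta-1 subunit of the large-conductance calcium-activated potassium channel, at 132 ± 13.8 CPM.

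The same ranking held a ligand of the integrin that the rule used. Npnt, nephronectin, an extracellular ligand of the integrin that contains the Itga8 chain, was at 488 ± 158 CPM. Ctnna3, alpha-T-catenin, was at 1234 ± 189 CPM in VSMCs and 50.6 CPM in pericytes, and Dgkb, a diacylglycerol kinase, at 635 ± 195 and 115 CPM. The others of the first 15 were the receptor Erbb4 (539.9 ± 164 CPM), Tafa1 (387 ± 211 CPM), Susd5 (246 ± 43.8 CPM), Lgr6, a receptor for R-spondins (168 ± 48.6 CPM), and Col19a1, a collagen chain (120.5 ± 71.4 CPM). Each of the 15 RNAs was higher in VSMCs than in the other cells in all 15 libraries. The cells were chosen by markers that move with these RNAs, so no test was run.

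**Figure D1:**
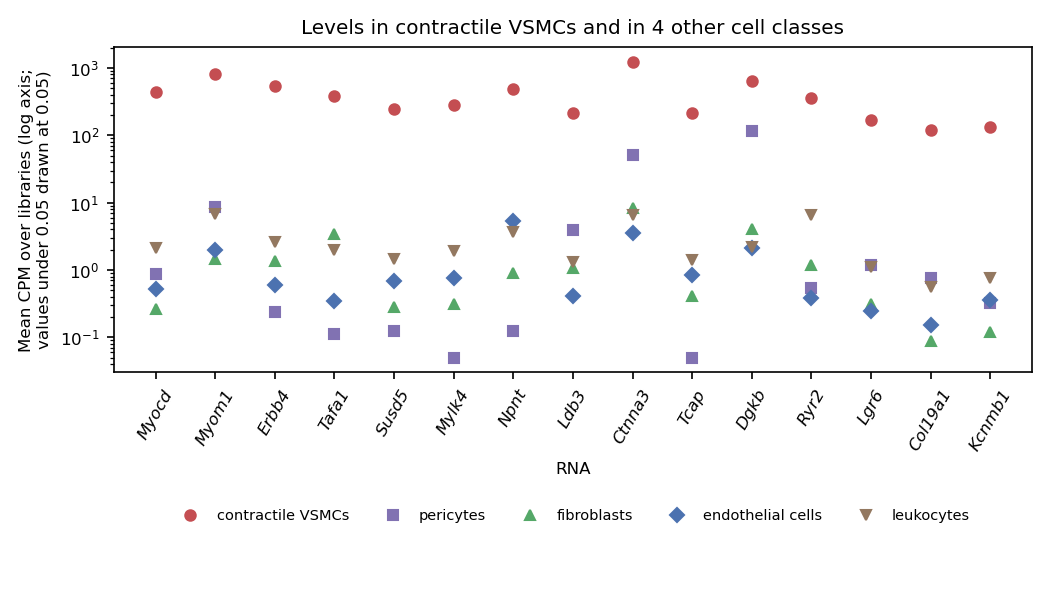
Mean level in CPM (log axis) of RNAs in contractile VSMCs, pericytes, fibroblasts, leukocytes and endothelial cells. Points are means over libraries, and Myocd is at 439.9 CPM in VSMCs and below 3 CPM in the 4 other classes.

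Among the listed programmes, contraction, calcium handling and relaxation were all represented. UMIs count molecules by an end tag, and levels of different RNAs are given without comparison between them. In the contractile list, Myl6 (the myosin essential light chain) was at 5929.8 ± 792 CPM, Actb at 5265 ± 745 CPM and Tpm2 (beta-tropomyosin) at 3969 ± 714 CPM. Among channels, Kcnab1, a potassium channel beta subunit, was at 1295 ± 161 CPM, and Cacna1c, the pore of the L-type calcium channel, at 616 ± 125 CPM with its subunit Cacnb2 at 833 ± 122 CPM. In the relaxation pathway, Prkg1 (protein kinase G) was at 1897 ± 387 CPM, the phosphodiesterase Pde3a at 1015 ± 131 CPM and Gucy1a1, a subunit of the nitric oxide receptor, at 432 ± 68.8 CPM.

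Matrix RNAs and regulators were measured as well. Eln, elastin, was at 2701 ± 1147 CPM, the latent TGF-beta binding proteins Ltbp1 and Ltbp4 at 882 ± 156 and 291 ± 59 CPM, Mgp, an inhibitor of vascular calcification, at 10038 ± 8029 CPM, Bgn, the proteoglycan biglycan, at 1440.0 ± 239 CPM and Sparc, a collagen-binding glycoprotein, at 1398 ± 342 CPM. Besides Myocd, the transcription factors Zfhx3 and Mef2c were at 699 ± 72.8 and 472 ± 61.3 CPM. Hoxa7, Hoxa3 and Hoxb2, whose expression follows position along the body axis, were at 67.8 ± 22.5, 47.6 ± 11.2 and 35.6 ± 8.12 CPM. Vim, vimentin, was at 4005 ± 553 CPM, and the calcium-binding S100a6 and S100a11 at 1512 ± 301 and 521 ± 74.6 CPM. The NADPH oxidase Nox4, which makes hydrogen peroxide, was at 1009 ± 210.3 CPM. Igfbp7, a secreted binding protein of the senescence list, was at 3731 ± 430.3 CPM, while Cdkn2a, the gene of the cell-cycle inhibitor p16, did not exceed 15.1 CPM in any library.

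Interferon, stress, clock and cyclin RNAs were also measured in VSMCs. In the interferon and MHC list, Ifitm3 was at 258 ± 97.5 CPM, beta-2-microglobulin (B2m) at 283 ± 86.3 CPM and Ifi27 at 232 ± 47.9 CPM. Among stress RNAs, the chaperones Hspa8, Hsp90aa1 and Hspb1 were at 1144 ± 413, 556 ± 206 and 1003 ± 335 CPM. The clock genes Rora, Clock and Nr1d1 were at 264 ± 61.2, 106 ± 24.5 and 85.6 ± 28.7 CPM, and the cyclins Ccnd2 and Ccnd3 at 290.3 ± 52.8 and 112 ± 21 CPM.

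By the ratio of variance to mean, VSMCs of 1 library differed most from each other in Malat1 and Mgp, with the 14 genes of the rule left out. To compare cells at equal depth, 1504 cells were thinned to 2000 UMIs each, and 307 shallower cells were left out. The Fano factor, the variance over the mean of the counts within a library, had a median over libraries of 56.2 for Malat1 (30.8 to 103) and 56.1 for Mgp (12.1 to 169), compared with a median of 1.09 over 3638 RNAs. This factor tends to be larger for RNAs with higher counts. Malat1 had a mean of 90.9 and Mgp of 13.7 UMIs per thinned cell, averaged over libraries. Mgp had a UMI in 80.5% of these cells and up to 342 UMIs in 1 cell. The next RNAs were the mitochondrial mt-Co3 (18), mt-Atp6 (15.2), mt-Cytb (15.1), mt-Co2 (12.7) and mt-Co1 (11.2), Tmsb4x, a thymosin that binds actin monomers (15.3), Fth1, the ferritin heavy chain (12.3), the protocadherin Pcdh7 (11.5), Dmd, dystrophin (8.27), and Eln (8.21). Across the 1504 thinned cells, Pearson's r was taken on the log of 1 plus the count, with the mean of each library subtracted. It was 0.56 between Malat1 and Dmd, 0.62 between Pcdh7 and Dmd and 0.50 between Pcdh7 and Eln. Mgp and Tmsb4x had an r of 0.59 and Tmsb4x and Fth1 of 0.75, while Fth1 and Malat1 had an r of -0.57. These cells share libraries and a fixed total of UMIs, so the values are descriptions.

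The share of VSMCs among kept cells varied several-fold between libraries of 1 group. It was 1.74%, 0.867%, 1.71% and 1.06% in Y VEH, 0.973%, 4.90%, 1.53% and 2.37% in Y FIS, 0.753%, 0.369% and 0.873% in O VEH and 1.63%, 0.626%, 1.56% and 0.581% in O FIS. For O VEH F2 the 95% Wilson interval was 0.269% to 0.506% and for Y FIS F2 4.42% to 5.43%, which cover counting error only. All O VEH shares but the highest lay below all young shares, and Y FIS spanned the widest range. Mean shares (± SD) were 1.34% ± 0.446 for the 4 Y VEH, 2.44% ± 1.73 for the 4 Y FIS, 0.665% ± 0.263 for the 3 O VEH and 1.1% ± 0.572 for the 4 O FIS libraries.

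No difference in share passed correction. Over both treatments the share was 0.912% ± 0.490 in the 7 old libraries and 1.89% ± 1.31 in the 8 young libraries, a difference of -0.981 percentage points (two-sided exact permutation test, p = 0.0357, 0.214 after Benjamini-Hochberg adjustment over 6 comparisons). O VEH differed from Y VEH by -0.677 points (exact permutation p = 0.114, adjusted 0.343), O FIS exceeded O VEH by 0.433 points (exact permutation p = 0.4, adjusted 0.6) and Y FIS exceeded Y VEH by 1.1 points (exact permutation p = 0.343, adjusted 0.6). O FIS and Y VEH differed by -0.245 points (exact permutation p = 0.514, adjusted 0.617), and females and males by 0.0984 points (exact permutation p = 0.960, adjusted 0.960). Tests of 3 against 4 or 4 against 4 libraries cannot give a p below 0.0286. Without Y FIS F2 the difference of Y FIS from Y VEH was 0.284, that of old from young -0.552 and that of females from males -0.390 points, and without O FIS M2 the last was -0.0352 points. With single libraries left out, O FIS differed from O VEH by 0.257 to 0.605 points and from Y VEH by -0.420 to -0.0723 points. Shares were also taken with cells thinned to 2000 UMIs before the rule. Kept cells with fewer UMIs were left out, at most 4076 of 14805 in a library (Y FIS M1). Mean shares among the deeper cells were then 1.85% ± 0.655, 3.28% ± 2.82, 0.805% ± 0.193 and 1.45% ± 0.760 in Y VEH, Y FIS, O VEH and O FIS.

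**Figure D2:**
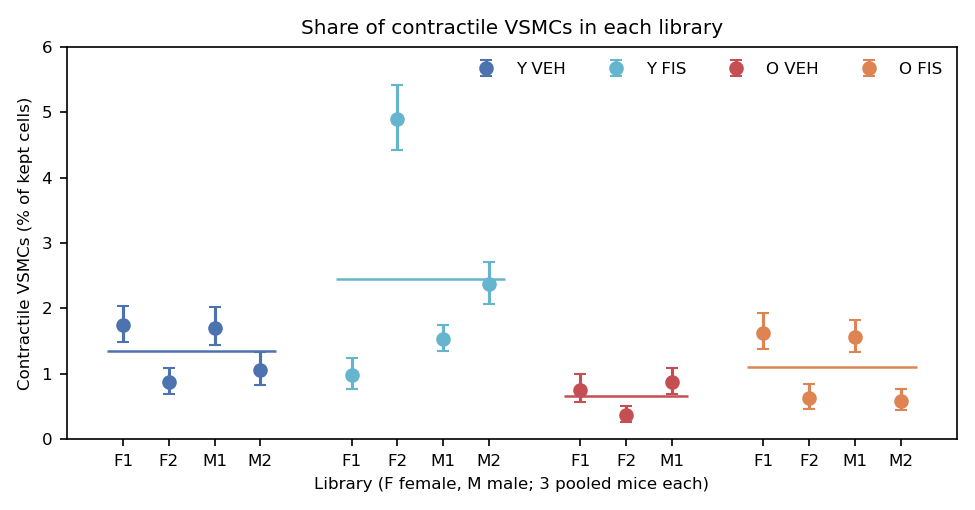
Share of contractile VSMCs among kept cells (percent) by library and group, with 95% Wilson intervals as bars. The highest library is Y FIS F2 at 4.90% and the lowest O VEH F2 at 0.369%.

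To ask how VSMCs differed with age, UMI counts were summed over the VSMCs of each library. An RNA was taken as differentially abundant (DAR) at an adjusted p under 0.05 in edgeR's quasi-likelihood test, with a log2 fold change beyond 0.25 and a UMI in over 10% of the cells of either side, and the 14 genes of the rule were not tested. In vehicle-treated mice, old VSMCs had more RNA of Cacna2d3, Fgf14, Gria4, Col4a3, Col4a4, the receptor Ror1 and Mgp, and less RNA of the calcitonin gene-related peptide receptor subunit Ramp1, Npnt, Lmcd1, Sh3bgr and Fbxl22. Of 7751 RNAs tested, 62 (0.800%) were DARs (47 higher, 0.606%, and 15 lower, 0.194%, in O VEH than in Y VEH). The count was 22, 40, 25 and 29 without Y VEH F1, F2, M1 and M2, and 97 and 30 without O VEH F1 and F2. The groups did not overlap for 940 of the 7751 RNAs (12.1%), called or not.

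The largest difference among DARs whose groups did not overlap was in Fgf14, an intracellular regulator of voltage-gated sodium channels (GRCm39 chr14:124211258-124914539, minus strand). Fgf14 was at 24.2, 34.3, 14.3 and 13 CPM in Y VEH and 239.7, 283 and 58 CPM in O VEH, 2.97 ± 0.42 higher on the log2 scale (± SE, adjusted p = 0.00215). Every O VEH library exceeded every Y VEH library, by the least in O VEH M1. Cacna2d3, which encodes the alpha-2/delta-3 subunit of voltage-gated calcium channels (chr14:28626892-29444600, minus strand), was at 14.5, 16.1, 22.9 and 29.8 CPM in Y VEH and 63.8, 49.9 and 223 CPM in O VEH (2.57 ± 0.35, adjusted p = 0.00205). The male O VEH library was the highest. The AMPA receptor subunit Gria4 rose by 2.35 ± 0.32 (adjusted p = 0.00205), from 34.6 ± 19.4 to 148 ± 57.4 CPM, beside 272 CPM in fibroblasts.

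Col4a3 and Col4a4, which are not on the collagen and matrix list, rose. Col4a3, the type IV collagen alpha-3 chain (chr1:82564642-82699780, plus strand), was at 16.9, 26.2, 7.63 and 22.4 CPM in Y VEH and 96.9, 158 and 78.9 CPM in O VEH (2.61 ± 0.40, adjusted p = 0.00328). Its partner chain Col4a4 rose by 1.74 ± 0.36 (adjusted p = 0.0269). The 2 groups did not overlap for Col4a3. Ror1, a receptor for WNT5A, was at 335, 278, 247 and 291 CPM in Y VEH and 584, 474 and 655 CPM in O VEH (0.98 ± 0.16, adjusted p = 0.00525). Klhl29, a kelch-like family gene, was at 32.3, 26.2, 51.5 and 44.7 and 171, 112 and 123 CPM (1.80 ± 0.26, adjusted p = 0.00215). The calls of Fgf14, Cacna2d3, Col4a3, Klhl29 and Ror1 held in all 20 alternatives, each library left out included. Among these alternatives, the setting of at least 20 cells per library left out no library and so repeats the main fit.

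Other calls depended on which libraries were included. Sphkap, an A-kinase anchoring protein, was at 39.5, 40.4, 6.68 and 22.4 CPM in Y VEH and 40.8, 220.3 and 204 CPM in O VEH (2.49 ± 0.52, adjusted p = 0.0263), and its call was lost without Y VEH F1, M1 or M2 or O VEH F2 or M1 (adjusted p up to 0.158 over 20 alternatives). Mcub, the inhibitory subunit of the mitochondrial calcium uniporter, was higher by 2.63 ± 0.59 (adjusted p = 0.0392) and its call was lost without Y VEH F1, F2, M1 or M2 or O VEH F1 or F2 and with a rule of at least 5 of 6 markers or a rule of at least 3 of 6 markers or cells with at least 2000 UMIs or cells with at most 10 percent Malat1 (adjusted p up to 0.163 over 19 alternatives). Ifi27l2a, an interferon-induced gene, was higher by 2.73 ± 0.49 (adjusted p = 0.0107), beside 594 CPM in leukocytes and 443 CPM in fibroblasts, and its call was lost without O VEH F2 and with a rule of at least 3 of 6 markers (adjusted p up to 0.164 over 20 alternatives), with the change at 1.73 under the latter. Mgp was at 8530.1, 6767, 4427 and 4552 CPM in Y VEH and 19737, 35607 and 5781 CPM in O VEH, with the male O VEH library inside the young range (1.49 ± 0.30, adjusted p = 0.0263). Its call was lost without Y VEH F1, F2, M1 or M2 or O VEH F2 and with only the groups compared in the fit (adjusted p up to 0.124 over 20 alternatives), and without O VEH F2 the change was 0.95.

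Lmcd1, Sh3bgr, Npnt and Fbxl22 were among the 15 RNAs that fell. Lmcd1, a LIM-domain cofactor that restrains GATA6, was at 789, 482, 553 and 497 CPM in Y VEH and 189, 274 and 297 CPM in O VEH (-1.25 ± 0.23, adjusted p = 0.0110, or 0.0524 without Y VEH F1). Sh3bgr, an SH3-binding glutamic acid-rich protein of muscle, was at 347, 319, 355 and 291 and 153, 104 and 176 CPM (-1.17 ± 0.21, adjusted p = 0.00996). Npnt was at 667, 724, 569 and 671 and 232, 466 and 348 CPM (-0.98 ± 0.19, adjusted p = 0.0179). Fbxl22, an F-box protein of the sarcomere, was at 253, 254, 239 and 246 and 133, 121 and 169 CPM (-0.82 ± 0.17, adjusted p = 0.0272), and its call was lost without Y VEH F1, F2, M1 or M2 or O VEH F1 or F2 (adjusted p up to 0.117 over 20 alternatives). None of these 4 overlapped between the groups, compared with 12.1% of all RNAs that did not. Ramp1, which makes the calcitonin receptor-like receptor respond to the dilator calcitonin gene-related peptide, was at 528, 375, 401 and 439.6 CPM in Y VEH and 270.3, 287 and 255 CPM in O VEH (-0.74 ± 0.15, adjusted p = 0.0203), and its call was lost without Y VEH F1 or M2 or O VEH M1 and with only the groups compared in the fit (adjusted p up to 0.0728 over 20 alternatives).

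Other large falls were in RNAs that are not muscle genes. Cmss1 was at 4632, 4501, 4247 and 4601 CPM in Y VEH and 2272, 1048 and 1871 CPM in O VEH (-1.38 ± 0.22, adjusted p = 0.00373). Cdk8, a kinase of the Mediator complex, was at 784, 783, 729.6 and 944 and 477, 158 and 290.2 CPM (-1.39 ± 0.23, adjusted p = 0.00773). Both are in a list of 7 library-linked transcripts, which had moved together over libraries in earlier results of these data, of which 3 were DARs here (Neat1 higher). In fibroblasts of these libraries Cmss1 changed by -1.49 ± 0.22 and Cdk8 by -1.18 ± 0.13, and in pericytes by -1.73 ± 0.19 and -1.32 ± 0.17. Akap17b, an A-kinase anchoring protein, fell (log2 fold change -2.24 ± 0.45, adjusted p = 0.0248), as did the kinase Stk17b (-1.14 ± 0.26, adjusted p = 0.0392). The call of Akap17b was lost without Y VEH M1 or O VEH F2 or M1 and with only the groups compared in the fit (adjusted p up to 0.101 over 20 alternatives), and that of Stk17b in 10 of 20 alternatives.

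Read against the lists, the vehicle comparison called few members of any programme, and 0.606% of all RNAs rose and 0.194% fell. In the contractile list 1 of 40 fell (Sh3bgr) and none rose, and 8 of 40 had a positive log2 fold change (median -0.19), while 3843 of all 7751 RNAs did (median -0.01). None of 18 channel and calcium-handling RNAs and none of 14 elastic fibre RNAs was a DAR. Of 38 collagens and other matrix RNAs 2 rose (Col8a1 and Mgp), of 19 vasoactive receptor and cyclic GMP RNAs 1 fell (Ramp1), and of 14 interferon and MHC class I RNAs 2 rose (Ifi27l2a and Ifitm3). Of 18 senescence and secretory RNAs 1 rose, the growth factor Fgf2 (1.06 ± 0.25, adjusted p = 0.0462), and its call was lost in 11 of 20 alternatives. None of 34 RNAs of the myocardin, Notch and TGF-beta list was called (median 0.33), nor of 15 of the modulated state (median 0.38), of 9 Hox RNAs (median -0.20) or of 30 early-response and heat-shock RNAs (median -0.49, 5 of 30 positive). The last list holds genes that tissue digestion induces. Of 14 clock RNAs 1 rose (Per3), and of 23 mitochondrial and antioxidant RNAs 1 fell, thioredoxin Txn1 (-0.65 ± 0.14, adjusted p = 0.0311). The 4 cell-cycle RNAs tested held no DAR. The calls of Col8a1 (6 of 20 alternatives), Ifitm3 (6 of 20 alternatives), Per3 (7 of 20 alternatives), Txn1 (9 of 20 alternatives) and Neat1 (10 of 20 alternatives) were also lost in some settings.

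Levels of markers of other cells moved with age in part. The neutrophil markers summed to 1.86 to 43.9 CPM in Y VEH and 29.1 to 137.7 CPM in O VEH, the fibroblast markers to 79.2 to 209.8 and 186.2 to 327 CPM, and the macrophage markers to 62.0 to 721 and 81.6 to 162 CPM. Their part in the DARs was not tested. Cd34, which fibroblasts hold at 712 CPM, rose in VSMCs from 12 ± 8.40 to 52.5 ± 16.7 CPM (2.31 ± 0.47, adjusted p = 0.0263). Its call was lost without Y VEH F1, M1 or M2 or O VEH F1 or M1 and with a rule of at least 3 of 6 markers (adjusted p up to 0.366 over 20 alternatives), with the change at 1.23 under the latter.

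Over both treatments, 7 old and 8 young libraries were compared, which includes the vehicle libraries above. Of 7705 RNAs, 213 (2.76%) were DARs (124 higher, 1.61%, and 89 lower, 1.16%, in old VSMCs). The count was 124 without Y VEH F1 and 116 without Y FIS F2. Old VSMCs had more RNA of the growth factors Fgf1 and Fgf2, the angiotensin receptor Agtr1b, Mgp and the clock genes Per3 and Tef, and less of the collagens Col3a1 and Col6a2, Sparc and the smooth muscle gamma-actin Actg2. The groups did not overlap for 33 of the 7705 RNAs (0.428%).

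Fgf14, Cacna2d3 and Klhl29 rose here too. Fgf14 had lowest, median and highest levels of 13, 34.6 and 65.6 CPM in young and 58, 239.7 and 283 CPM in old libraries (2.46 ± 0.27, adjusted p = 7.39e-05). The ranges overlapped between 58.0 CPM in O VEH M1 and 65.6 CPM in Y FIS F1. Cacna2d3 was at 4.68, 22.8 and 40.2 CPM in young and 40.6, 65.4 and 223 CPM in old libraries, without overlap (2.09 ± 0.23, adjusted p = 7.39e-05). Klhl29 was at 26.2, 37.2 and 54.4 and 66.6, 112 and 171 CPM, without overlap (1.54 ± 0.17, adjusted p = 9.02e-05). The other non-overlapping DARs with large rises were the long noncoding RNA Morrbid (1.81 ± 0.23, adjusted p = 0.000281), Prune2 (1.56 ± 0.23, adjusted p = 0.00110), the Golgi GTPase Rab6b (1.09 ± 0.16) and Abr, which inactivates Rac (0.88 ± 0.16). Col4a3 rose by 1.66 ± 0.26 and Sphkap by 1.88 ± 0.33, and both calls held in all 27 alternatives. Among non-overlapping falls, besides Cmss1, Cdk8, Lmcd1 and Stk17b, were St3gal5, which makes the ganglioside GM3 (-1.32 ± 0.26, adjusted p = 0.00947), and the zinc finger gene Zfp568 (-1.04 ± 0.23, adjusted p = 0.0154).

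**Figure D3:**
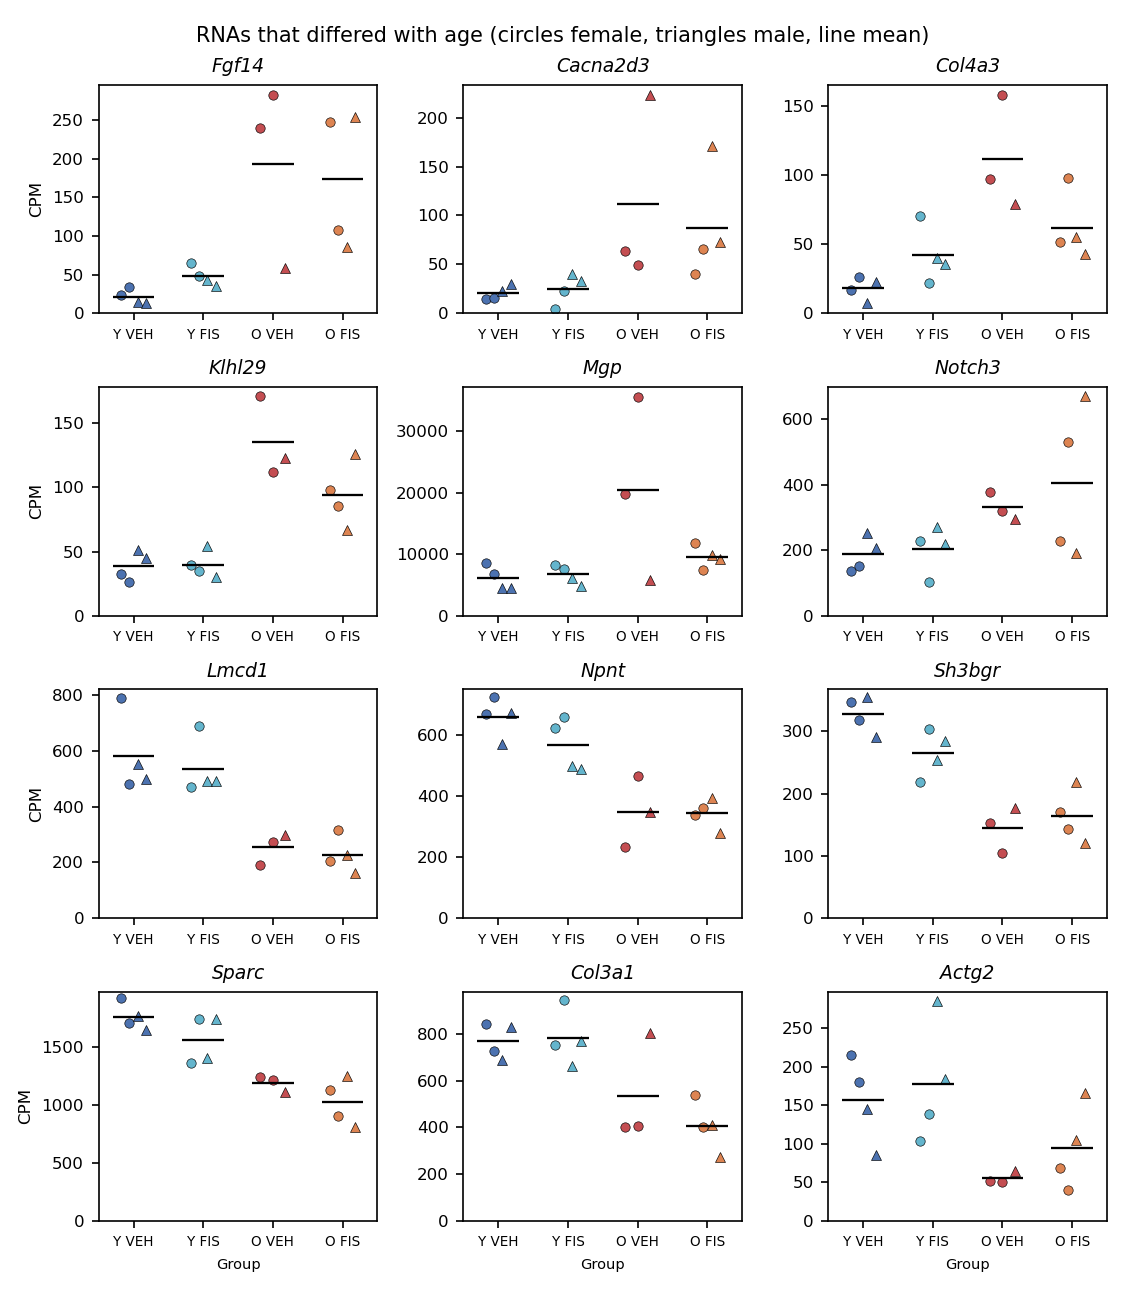
Levels in CPM by library of RNAs that differed between old and young VSMCs, with circles for female and triangles for male libraries. Cacna2d3 separates 7 old libraries (40.6 to 223 CPM) from 8 young ones (4.68 to 40.2 CPM), and Lmcd1 spans 471 to 789 CPM in young and 161 to 317 CPM in old libraries.

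In the contractile list 2 of 40 rose and 2 fell over both treatments (15 of 40 positive, median -0.11), compared with 1.61% and 1.16% of all RNAs and 3748 of 7705 positive. These shares of all RNAs are the background for each list that follows. Actg2 was at 85.7, 162 and 285 CPM in young and 39.2, 65 and 166 CPM in old libraries (-1.23 ± 0.25, adjusted p = 0.0122), and O FIS M1 and M2 lay inside the young range. Sh3bgr fell (log2 fold change -0.92 ± 0.13, adjusted p = 0.000999). The adaptor Sorbs2 rose by 1.06 ± 0.26 (adjusted p = 0.0322) and gamma-synuclein, Sncg, by 0.86 ± 0.19 (adjusted p = 0.0196). The call of Sorbs2 was lost in 11 of 27 alternatives, and that of Sncg without Y VEH F1 or O VEH F1 or O FIS M2 (adjusted p up to 0.0669 over 27 alternatives). Outside the list, Lmcd1 was at 471, 495 and 789 CPM in young and 161, 228 and 317 CPM in old libraries without overlap (-1.25 ± 0.15, adjusted p = 0.000166). Myocd itself did not pass (-0.25 ± 0.16, adjusted p = 0.533).

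Receptors changed in both directions. Agtr1b, the type 1b receptor for the constrictor angiotensin II, rose from 22.5 ± 16.7 (SD, n = 8) to 50.6 ± 9.93 (n = 7) CPM (1.41 ± 0.29, adjusted p = 0.0122), and Pde1a, a calcium-activated phosphodiesterase, by 0.66 ± 0.17 (adjusted p = 0.0375), which was lost in 12 of 27 alternatives. Ramp1 was at 336, 406 and 528 CPM in young and 255, 326 and 363 CPM in old libraries (-0.46 ± 0.10, adjusted p = 0.0133). These were 3 of 19 members tested. None of 20 channel and calcium-handling RNAs of the list was a DAR, and Cacna2d3 was not on it.

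Matrix RNAs changed in both directions. Mgp was at 4427, 6427 and 8530.1 CPM in young and 5781, 9914 and 35607 CPM in old libraries (1.04 ± 0.20, adjusted p = 0.00816), a call that held in all 27 alternatives although the ranges overlapped. Col8a1, a short-chain collagen of vessels, rose by 1.44 ± 0.31 (adjusted p = 0.0156). Sparc was at 1365, 1722 and 1922 CPM in young and 809, 1131 and 1252 CPM in old libraries without overlap (-0.60 ± 0.11, adjusted p = 0.00511). Col3a1, type III collagen, was at 660.1, 762 and 946 and 271, 403 and 803 CPM (-0.74 ± 0.16, adjusted p = 0.0140). Only O VEH M1 of the old libraries lay inside the young range of Col3a1. Col6a2 fell (log2 fold change -0.60 ± 0.12, adjusted p = 0.00949), and so did Col1a2 (-0.61 ± 0.16, adjusted p = 0.0366), whose call was lost in 12 of 27 alternatives. Together 2 of 38 matrix members rose and 4 fell. In the vehicle comparison none of the 38 was called lower, while Col3a1 and Sparc were called lower in O FIS than in Y VEH. No matrix member was called between O FIS and O VEH.

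Elastin was not a DAR (-0.39 ± 0.19, adjusted p = 0.366), and of 14 elastic fibre members 1 rose, Ltbp2 (1.61 ± 0.36, adjusted p = 0.0185), whose call was lost without O VEH M1 (adjusted p up to 0.140 over 26 alternatives). In the modulated-state list, Tnfrsf11b (osteoprotegerin, a decoy receptor that limits bone resorption and arterial calcification) rose by 1.51 ± 0.37 (adjusted p = 0.0316), Ank (needed for release of pyrophosphate, which inhibits mineral) rose by 0.57 ± 0.14 (adjusted p = 0.0247), and Myh10, nonmuscle myosin IIB, fell (log2 fold change -0.67 ± 0.17, adjusted p = 0.0390). The 2 that rose oppose calcification, while the list was made of genes raised in modulated or mineralising cells, and 3 of its 16 tested members were called. The calls were lost in 10 of 27 alternatives for Tnfrsf11b, 7 of 27 alternatives for Ank and 11 of 27 alternatives for Myh10. In the signalling list, Notch3, the Notch receptor of mural cells, rose by 0.95 ± 0.24 (adjusted p = 0.0386) and Pdgfa, a growth factor chain, by 0.52 ± 0.12 (adjusted p = 0.0174), 2 of 35 members. Notch3 was at 1432 CPM in pericytes and its call was lost in 12 of 27 alternatives, and that of Pdgfa without Y VEH F1 or Y FIS F2 or O VEH F1 (adjusted p up to 0.0628 over 27 alternatives).

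Secreted and immune RNAs rose in small numbers. Fgf1 (0.92 ± 0.19, adjusted p = 0.0122), Fgf2 (0.75 ± 0.16, adjusted p = 0.0149), Igfbp5 (0.99 ± 0.23, adjusted p = 0.0229) and S100a9 (2.23 ± 0.59, adjusted p = 0.0467) were 4 of 19 members of the senescence and secretory list, and none fell. S100a9 is a neutrophil RNA at 2897 CPM in leukocytes, and it lost its call in 15 of 27 alternatives. In the fisetin groups the neutrophil markers, S100a9 among them, summed to 0 to 13.1 CPM in Y FIS and 17.6 to 81.3 CPM in O FIS. Their part in these calls was not tested. Without Y FIS F2 the change of S100a9 was 4.40, and it was also over 1.5 times as large without Y VEH M1. Igfbp5 lost its call without Y VEH F1 or Y FIS F2 or O VEH F1 or O FIS M2 and with a rule of at least 5 of 6 markers or a rule of at least 3 of 6 markers (adjusted p up to 0.102 over 27 alternatives), and without O VEH F1 its change was 0.52. The cell-cycle inhibitor Cdkn1a (-0.11 ± 0.32, adjusted p = 0.939) and the chemokine Cxcl12 (0.26 ± 0.27, adjusted p = 0.753) did not pass. Of 15 interferon and MHC class I members 3 rose, Ifi27l2a (1.93 ± 0.32), Ifitm3 (0.66 ± 0.14) and H2-K1 (0.45 ± 0.12). With cells of at least 3 markers Ifi27l2a (0.76, adjusted p = 0.377) and Ifitm3 (0.27, adjusted p = 0.551) were not called and H2-K1 had a log2 fold change of -0.13. The call of H2-K1 was lost in 18 of 27 alternatives. Of 30 early-response and heat-shock members 2 fell, Dusp1 (-0.63 ± 0.17, adjusted p = 0.0457) and Hsp90aa1 (-0.63 ± 0.15, adjusted p = 0.0290), with 5 of 30 positive. The call of Dusp1 was lost in 14 of 27 alternatives, and that of Hsp90aa1 without Y FIS F2 or M1 or O VEH M1 or O FIS M2 (adjusted p up to 0.0862 over 27 alternatives). None of 9 Hox members (1 of 9 positive, median -0.27) and none of 4 cell-cycle members was called, and 1 of 23 mitochondrial and antioxidant members fell (Txn1, -0.39 ± 0.09, lost without Y FIS F2 or O VEH M1 and with a rule of at least 5 of 6 markers (adjusted p up to 0.0675 over 27 alternatives)).

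Whether these differences were particular to VSMCs was asked by testing the difference of the age change between VSMCs and fibroblasts or pericytes of the same libraries. Between O VEH and Y VEH, the change differed from that of fibroblasts for 45 of 9987 RNAs (0.451%) and from that of pericytes for 37 of 8966 (0.413%, 14 libraries, since Y FIS F2 had 6 pericytes). Those against pericytes include the haemoglobin RNAs Hbb-bt, Hba-a2, Hba-a1 and Hbb-bs. In O VEH F1, 1 cell held 9225 of the 9339 haemoglobin UMIs of VSMCs. Of the 62 VSMC DARs, 17 differed from fibroblasts and 14 of 61 from pericytes, each with the larger change in VSMCs. Of these, 2 in fibroblasts and 1 in pericytes did not pass the filter on low counts in that class alone and are not described further. These DARs were chosen for a change in VSMCs, so the direction is fixed in part by that choice. Over both treatments the change differed for 144 of 9812 RNAs (1.47%) against fibroblasts and 36 of 8826 (0.408%) against pericytes.

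Klhl29 differed from both classes. Its change exceeded that of fibroblasts by 1.5 ± 0.34 (adjusted p = 0.0446) and that of pericytes by 1.67 ± 0.35 (adjusted p = 0.0155) in vehicle mice. Against fibroblasts, Cacna2d3 (1.99 ± 0.34, adjusted p = 0.00410), Col4a3 (2.77 ± 0.47, adjusted p = 0.00377) and Fgf2 (1.19 ± 0.27, adjusted p = 0.0440) changed more in VSMCs. Ror1 changed more than in pericytes (1.33 ± 0.26, adjusted p = 0.00810), and its difference from fibroblasts did not pass (0.63 ± 0.21, adjusted p = 0.255). Over both treatments the change of Ror1 did not differ from either at the threshold (adjusted p = 0.467 and 0.473), while that of Fgf1 exceeded that of fibroblasts by 1.29 ± 0.21 (adjusted p = 0.000880) and that of pericytes by 1.14 ± 0.28 (adjusted p = 0.0493). Fgf14, Sphkap and Lmcd1 in both classes, and Cacna2d3, Col4a3 and Fgf2 in pericytes, did not pass the filter in that class alone, so nothing is read from their difference to it. In the joint model the vehicle difference of Fgf14 did not pass against fibroblasts (adjusted p = 0.172) or pericytes (adjusted p = 0.300).

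**Figure D4:**
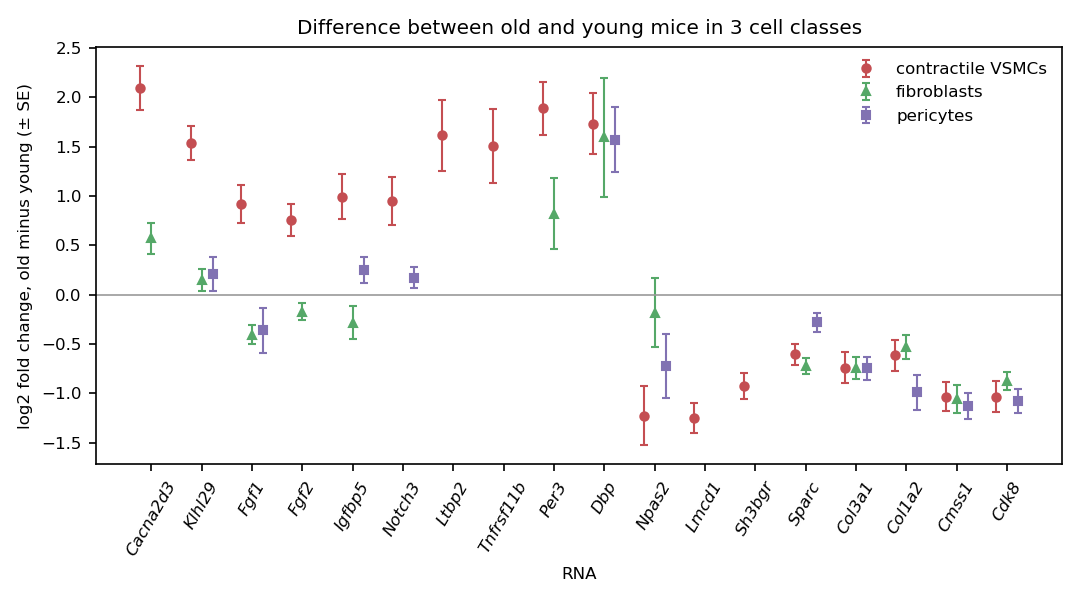
Log2 fold change with standard error between old and young libraries for RNAs in contractile VSMCs, fibroblasts and pericytes, each fitted alone. Cmss1 is lower in all 3 classes, while Cacna2d3 is higher by 2.09 in VSMCs.

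Other VSMC DARs were shared. Cmss1 changed by -1.05 ± 0.14 in fibroblasts and -1.13 ± 0.13 in pericytes, beside -1.03 ± 0.14 in VSMCs. Sparc changed by -0.72 ± 0.08 in fibroblasts (adjusted p = 0.000154), and Col3a1 by -0.74 ± 0.12 in fibroblasts and -0.75 ± 0.11 in pericytes. Of the 213 DARs over both treatments, 32 of 163 tested in fibroblasts and 15 of 143 tested in pericytes passed the same adjusted p and fold there, compared with 540 of 9316 (5.80%) and 50 of 7646 (0.654%) of all RNAs tested in those classes. These cells came from the same libraries. Of the 7 library-linked transcripts 4 fell in VSMCs over both treatments (Cmss1, Cdk8, Camk1d with -0.86 ± 0.17 and Lars2 with -0.71 ± 0.16) and Neat1 rose. Sncg rose more in pericytes than in VSMCs (VSMC minus pericyte change -1.60 ± 0.27, adjusted p = 0.00119).

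Clock genes differed with age and with sex. Over both treatments 4 of 16 clock members rose and 2 fell. Dbp, a clock output transcription factor, was at 8.88, 4.04, 33.4 and 44.7 CPM in Y VEH, 30.4, 19.5, 92.3 and 86.5 CPM in Y FIS, 40.8, 99.8 and 53.4 CPM in O VEH and 69.3, 22.9, 285 and 319 CPM in O FIS. Male libraries were higher in each group except O VEH, where the single male library lay between the females. Old exceeded young libraries by 1.74 ± 0.31 (adjusted p = 0.00511, lost without the sex term at 0.147), and the difference of females from males was -1.85 ± 0.28 (adjusted p = 0.00263). With age Per3 rose by 1.89 ± 0.27, Tef by 1.04 ± 0.18 and Bhlhe40 by 1.56 ± 0.35. Clock (-0.47 ± 0.12, adjusted p = 0.0467) and Npas2, its paralog that also pairs with BMAL1 (-1.23 ± 0.30, adjusted p = 0.0304), fell. The calls of Bhlhe40 (4 of 26 alternatives), Clock (17 of 27 alternatives) and Npas2 (9 of 27 alternatives) were lost in some settings. Arntl, which encodes BMAL1, did not pass (-0.73 ± 0.27, adjusted p = 0.194). The hour at which tissue was collected was not given in the sources used here.

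Between the sexes 16 of 7788 RNAs (0.205%) were DARs (5 higher and 11 lower in females), and 10 without Y FIS M2 or without O FIS M1. Xist and Tsix of the X chromosome were higher in females, and Ddx3y, Eif2s3y, Uty and Kdm5d of the Y chromosome in males. They were among 14 of all 7788 RNAs (0.180%) that did not overlap. The clock repressor Nr1d2 (-0.89 ± 0.13, adjusted p = 0.00125) and Per3 (-1.33 ± 0.25, adjusted p = 0.0223) were lower in females, with the call of Per3 lost in 7 of 25 alternatives. Cacna2d3 was also lower in females (-1.22 ± 0.22, adjusted p = 0.0177), a call that was lost without O VEH M1 or O FIS F1 or M1 and with cells with at least 2000 UMIs (adjusted p up to 0.107 over 25 alternatives).

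To ask what fisetin did in old VSMCs, O FIS was compared with O VEH. No RNA of 7551 was a DAR (0%), and 575 had an unadjusted p under 0.05 (259 higher and 316 lower). DESeq2 called 4 RNAs, Des and Fbxl22 higher and Grk5 and Eln lower. These were also the RNAs with the smallest p in edgeR. Des, the intermediate filament protein desmin, was at 61.2, 70.7 and 81.3 CPM in O VEH and 263, 317, 133 and 158 CPM in O FIS, with 68.6, 74.7, 101 and 48.4 CPM in Y VEH and 110.1, 65.5, 95.8 and 137 CPM in Y FIS. All O FIS libraries exceeded all O VEH libraries, and 513 of the 7551 RNAs (6.79%) did not overlap between these groups (1.59 ± 0.34, adjusted p = 0.300 in edgeR). Fbxl22 was at 133, 121 and 169 CPM in O VEH and 201, 298, 246 and 302 CPM in O FIS (0.84 ± 0.17, adjusted p = 0.300). The O FIS values lay on both sides of those of Y VEH, 253, 254, 239 and 246 CPM.

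RNAs with lower values under fisetin included elastin. Eln was at 2675, 3105 and 5043 CPM in O VEH and 2133, 1226, 1502 and 968 CPM in O FIS, beside 3787, 2409, 2980.3 and 3979 CPM in Y VEH (-1.30 ± 0.28 for O FIS against O VEH, adjusted p = 0.300). Each O FIS library lay below each O VEH and each Y VEH library (6.79% and 6.24% of all RNAs did not overlap in these comparisons). Grk5, a kinase that desensitises G protein-coupled receptors, was at 186, 212 and 253 CPM in O VEH and 127, 121, 136 and 121 CPM in O FIS (-0.78 ± 0.16, adjusted p = 0.300). Fos, an immediate early gene, was at 135, 125 and 128 and 420.3, 235, 166 and 214 CPM (1.03 ± 0.25, adjusted p = 0.530), and Cd34 differed by -2.11 ± 0.48 (adjusted p = 0.434).

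**Figure D5:**
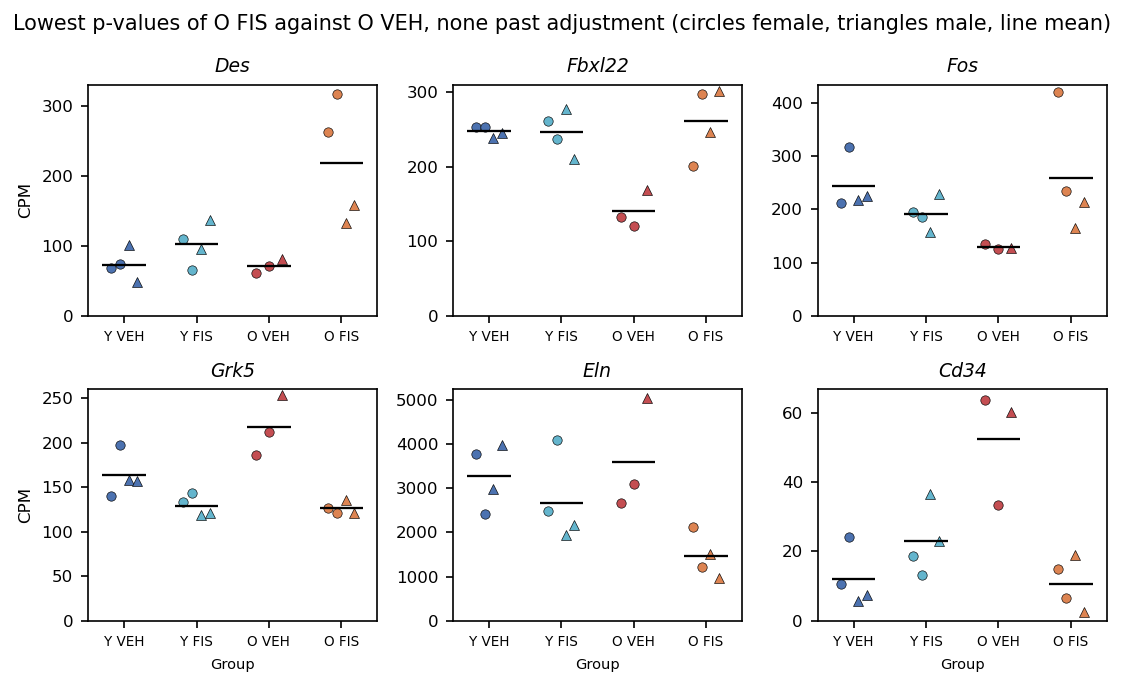
Levels in CPM by library and group of the RNAs with the smallest p between O FIS and O VEH, with circles for female and triangles for male libraries and a line at the mean. The 4 O FIS libraries hold 968 to 2133 CPM of Eln and the 3 O VEH libraries 2675 to 5043 CPM, and no RNA was a DAR in edgeR.

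By list, 30 of 40 contractile members had a positive fold change between O FIS and O VEH (median 0.17), 2 of 14 elastic fibre members (median -0.41), 12 of 38 matrix members (median -0.18) and 22 of 30 early-response members (median 0.20), while 3778 of all 7551 RNAs were positive. None of these was a DAR. The fibroblast markers summed in the VSMCs to 186.2, 224 and 327 CPM (lowest, median and highest) in O VEH and 39.2, 111 and 211 CPM in O FIS, and the pericyte markers to 266, 683 and 959 and 784, 862 and 1390.3 CPM. Their part in these values was not tested. The O VEH libraries are shared with the vehicle age comparison, so the 2 comparisons are not independent.

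O FIS was also compared with Y VEH, whose libraries served as controls above. Of 7761 RNAs 52 (0.670%) were DARs (26 higher and 26 lower). The count was 16, 20, 22 and 24 without Y VEH F1, F2, M1 and M2, and 26, 138 and 21 without O FIS F1, M1 and M2. Des was higher (1.48 ± 0.28, adjusted p = 0.0182) and Eln lower (-1.21 ± 0.26, adjusted p = 0.0383) than in Y VEH. The call of Des was lost without Y VEH F1, F2 or M2 or O FIS F1 (adjusted p up to 0.0804 over 21 alternatives), and that of Eln was lost without Y VEH F1, M1 or M2 or O FIS F2 or M2 and with no sex term or a rule of at least 3 of 6 markers or cells with at least 2000 UMIs (adjusted p up to 0.141 over 21 alternatives). The matrix protease Mmp3 was at 7.26, 8.07, 8.58 and 7.45 CPM in Y VEH and 124, 9.81, 113 and 85.5 CPM in O FIS (3.51 ± 0.65, adjusted p = 0.0182), beside 643 CPM in fibroblasts. Enpp2, the secreted enzyme autotaxin, was higher by 1.82 ± 0.35, and the predicted gene Gm12381 by 1.88 ± 0.30, which was lost without the sex term. Lmcd1 (-1.41 ± 0.20) and Npnt (-0.96 ± 0.17) were lower, and both calls held in all 21 alternatives. The other large falls were in Npas2 (-1.94 ± 0.40), Wdr95 (-1.54 ± 0.25), Pdzd2 (-1.42 ± 0.28), the ganglioside enzyme St3gal5 (-1.38 ± 0.31) and Scube3 (-1.25 ± 0.28). The calls of Mmp3 (4 of 20 alternatives), Enpp2 (5 of 21 alternatives), Npas2 (7 of 21 alternatives), Pdzd2 (5 of 21 alternatives), St3gal5 (12 of 21 alternatives) and Scube3 (12 of 21 alternatives) were lost in some settings. With a rule of at least 3 of 6 markers the difference of Enpp2 was 0.34 (adjusted p = 0.915), and without O FIS F1 that of Npas2 was -3.09. In the clock list Per3, Nr1d2 and Dbp were higher and Npas2 and Nfil3 lower, 5 DARs of 16 members. The call of Nr1d2 was lost in 14 of 21 alternatives and that of Nfil3 in 12 of 21 alternatives, and those of Per3 and Dbp without the sex term.

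In young mice no RNA of 7693 was a DAR between Y FIS and Y VEH (0%), with 381 at an unadjusted p under 0.05 (214 higher and 167 lower) and none called by DESeq2. The groups did not overlap for 327 of these RNAs (4.25%). The smallest p belonged to Itgb8, an integrin that activates latent TGF-beta (1.62 ± 0.31, adjusted p = 0.318), followed among higher RNAs by Cep112 (0.82 ± 0.19) and Ehbp1 (0.60 ± 0.15) and among lower ones by the lipid-droplet gene Plin4 (-0.65 ± 0.16), Mdp1 (-0.86 ± 0.21) and Rpain (-0.76 ± 0.21). The fisetin change itself was compared between ages. The interaction gave no DAR among 7444 RNAs (0%), with 660 at an unadjusted p under 0.05 (308 higher and 352 lower) and none called by DESeq2. Plin4 (1.27 ± 0.25), Fos (1.38 ± 0.32) and Mea1 (1.30 ± 0.31) had its smallest p upward and Pi16 (-3.09 ± 0.71), Ahcyl2 (-1.37 ± 0.32) and Ror1 (-0.90 ± 0.21) downward, none passing. Against fibroblasts and pericytes of the same libraries, no RNA differed in its fisetin change at either age in edgeR (0%). In old mice 552 of 9899 RNAs against fibroblasts and 509 of 8963 against pericytes had an unadjusted p under 0.05, and in young mice 459 of 9763 and 485 of 8730.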

How the data were processed

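Aortic cells of 15 libraries were profiled with 10x 3' single-cell RNA sequencing. The matrices that the authors deposited hold unnormalized UMI counts for each gene in each barcode, made with Cell Ranger 8.0.1 on GRCm39 according to the submitters' processing notes for 33696 genes, and their own cell filters were not yet applied. Whether intronic reads were counted is not given in the sources used here. Cells were kept with 200 to 7000 genes and at most 25% mitochondrial UMIs. Fibroblasts (12633 cells) had both Lum and Pdgfra with at most 1 contractile marker. Pericytes (966 cells) had at least 3 of the 4 pericyte genes, at most 3 contractile markers and at most 1 UMI of Lum and Pdgfra together. Both classes were without Ptprc and Cdh5.

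Counts were summed over the VSMCs of each library and fitted in edgeR (quasi-likelihood) with terms for group and sex over the 15 libraries, after TMM normalization (factors from 0.967 to 1.05) and filterByExpr, with Benjamini-Hochberg adjustment over all RNAs tested. Differences between classes came from 1 edgeR model over both classes with library as block. CPM in the text are not TMM-scaled. Overlap of groups was judged on these CPM for named RNAs, but on TMM-scaled CPM for the counts over all RNAs. Shares had two-sided exact permutation tests. The library pools several mice, and p-values measure the spread between pools. Replicate numbers did not pair libraries (correlation of deviations over 21 pairs from -0.264 to -0.001, none over 0.1). For 1 alternative Scrublet (expected doublet rate of 0.08) was run, but it marked under 0.5% of cells in Y FIS F2, O VEH F1 and O FIS M1 and so did not work there. The pipeline was tested on simulated data.

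Members, gene lists and named genes were chosen with earlier results of these data known. Named were the 6 DARs with the largest rise and fall among those without overlap per comparison (the 3 smallest p where fewer than 3 were called), list members that were called, the 3 highest members of each list, 15 RNAs by ratio to other cells and 12 by Fano factor. Gria4, Col4a4, Cdkn1a, Cxcl12 and Arntl (listed as Bmal1) were named after their values were seen. A call counted as lost in an alternative when the RNA was no longer a DAR there, left-out libraries included. Of the lists of other cell types, those not named in the text summed to at most 233 CPM in any library (endothelial cells). Alternatives were RLE size factors, no sex term, no gene filter, the replicate block, only the groups compared, DESeq2, no called doublets, rules of at least 3 or 5 markers, no cell filter, at least 20 cells per library and each library left out, and, chosen after seeing the data, cells with at least 2000 UMIs and cells with at most 10% Malat1. The setting of at least 20 cells left out no library, since the fewest VSMCs in a library were 38. It repeats the main fit, could not lose a call and is included wherever alternatives are counted. Tools were R 4.3.3, edgeR 4.0.16, DESeq2 1.42.0, Python 3.11.15, scanpy 1.11.5, numpy 2.4.6, scipy 1.17.1, pandas 2.3.3 and matplotlib 3.10.9. One promoter stretch is not reported here.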

Additional observations from a re-analysis of the deposited data

Results flagged for a closer look

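Single libraries stood apart from the rest of their group of 4 in 11 of 102 groups tested, over 34 measures, where chance gives about 1 in 20. Y FIS F2 held 57.8 VSMCs per pericyte (0.684 to 2.55 in the other 3 Y FIS libraries) and O FIS F1 7.05 (1.07 to 2.00). Acta2 was at 20499 CPM in Y VEH F1 (17964 to 17974 in the others) and Cnn1 at 631 CPM in O FIS M2 (924 to 950.3). Ifi27l2a was at 42.8 CPM in Y FIS M2 (15.4 to 19.98), Lmcd1 at 689 CPM in Y FIS F2 (471 to 492) and Fos at 317 CPM in Y VEH F2 (213 to 225). Morrbid was at 15.3 CPM in Y VEH F1 (27.9 to 30.5), Prune2 at 20.2 CPM in Y VEH F2 (8.88 to 10.5), Rab6b at 108 CPM in O FIS M2 (54.1 to 62.8) and Zfp568 at 75.7 CPM in Y FIS M1 (39.7 to 43.6).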

How the results depend on the processing

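Without a filter on low counts, DARs numbered 372 (O VEH against Y VEH), 59 (O FIS against O VEH), 55 (Y FIS against Y VEH), 411 (O FIS against Y VEH), 545 (old against young), 163 (female against male) and 66 (interaction), and the median of all RNAs shifted to -0.07 in the first. DESeq2 called 124, 4, 88 and 31 for O VEH against Y VEH, O FIS against O VEH, O FIS against Y VEH and the sexes. For O FIS against Y VEH the count was 19 without a sex term, 20 with at least 3 markers and 30 with cells of at least 2000 UMIs. With each library left out in turn, counts ranged from 22 to 97 (O VEH against Y VEH), 0 to 1 (O FIS against O VEH), 0 to 0 (Y FIS against Y VEH), 16 to 138 (O FIS against Y VEH), 116 to 313 (old against young), 10 to 22 (sexes) and 0 to 1 (interaction). Share differences then ranged from -0.836 to -0.529, 0.257 to 0.605, 0.284 to 1.59, -0.420 to -0.0723, -1.13 to -0.552 and -0.390 to 0.263 percentage points in the same order without the interaction. The difference of females and males in share turned to -0.390 without Y FIS F2 and -0.0352 without O FIS M2, and no share difference passed under any alternative. Many of these tests could not have passed, as their smallest possible p was too large. This holds for the comparisons with O VEH in every setting. It also holds for those of 4 against 4 libraries with a library left out, and for all with the replicate block. Nothing is read from their not passing. H2-K1 turned to -0.13 with at least 3 markers.

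With the replicate number as a block, 45, 0, 0, 41, 188 and 0 RNAs were called for O VEH against Y VEH, O FIS against O VEH, Y FIS against Y VEH, O FIS against Y VEH, old against young and the interaction, and the paired share differences were -0.772, 0.605, 1.1, -0.245 and -1.10 points for the first 5. Of the named DARs, 5 of 29 (O VEH against Y VEH), 8 of 33 (O FIS against Y VEH) and 8 of 63 (old against young) were not called with the block, Sphkap, Mcub, Stk17b, Fgf2 and Txn1 in the first and Eln among those of the second. The numbers did not pair the libraries, so the lists of lost calls above leave out the block, while counts of alternatives include it. No fit with the block was made for the sexes, since it holds the sex. Outside the libraries left out, 72 counts of DARs stayed within 1.5 times and 14 moved, and of the values of named DARs 1488 stayed DARs, 170 did not and 1 reversed, while RNAs that were not DARs stayed so 209 times and became DARs 18 times. The causes of these changes were not tested. The counts and values that stayed include those of at least 20 cells per library, which repeats the main fit. With 38 to 347 VSMCs per library, RNAs detected in few cells could not be tested.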
